A study of Homo sapiens with 2 samples.

Results

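The Hsp90 genes and the genes of their cochaperones were followed in U251 cells given G-TPP or its solvent. The members are the 4 human Hsp90 paralogs and 6 cochaperones, chosen as probe sets whose single gene symbol in the platform's annotation was one of these 10 names. Of the 10 genes, 9 had such a probe set, 10 probe sets in all out of 33297 on the array. No value was obtained for AHSA1, the Hsp90 ATPase activator, because none of the probe sets annotated to 1 gene carried its name. U251 is an established human glioblastoma line, and 1 line was used. Cells in high-glucose medium received DMSO or 5 µM G-TPP for 6 h, and each condition has 1 Affymetrix array made from 6 µg of total RNA. G-TPP is a Gamitrinib, an Hsp90 inhibitor of the geldanamycin type joined to triphenylphosphonium, which carries it into mitochondria. The comparison addresses how transcripts respond when mitochondrial Hsp90 is targeted, and for these genes whether the paralogs of the cytosol, the endoplasmic reticulum (ER) and mitochondria differ in that response. Whether the chaperones were inhibited was not measured here. With 1 array per condition no test, standard error or p-value can be given, and "higher" and "lower" describe these 2 arrays.

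Hsp90 chaperones are dimers that close around a client protein when they bind ATP and open again after hydrolysis. Cochaperones load clients, slow or speed the ATPase, or hold the closed state. In the cytosol, blocking Hsp90 is known to free the transcription factor HSF1, which binds heat shock elements in the promoters of chaperone genes. The ER paralog belongs to the unfolded protein response, whose factors bind ER stress elements.

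The promoters of the members differ in these elements, and the stretches that hold them are shown because they separate the paralogs by compartment. RefSeq windows (build GRCh38.p14) run from 250 bases before to 50 bases after a transcription start. They were found by symbol for 9 of the 10 members, 14 windows in all, and FKBP4 had none. Both strands were searched for the 3-unit heat shock element, which is GAANNTTC followed by NNGAA or the reverse complement of that, and for the ER stress element, which is CCAAT and CCACG with 9 bases of any kind between them. The 3-unit form contains the 2-unit forms GAANNTTC and TTCNNGAA, which were searched too. Of all 35116 windows, 0.490% held the 3-unit element, 13.5% a 2-unit form and 0.077% the ER stress element. Capitals mark 3-unit heat shock elements in CHORDC1, HSP90AA1 and HSP90AB1, and ER stress elements in HSP90B1. TRAP1 is shown for comparison and held none of these motifs.
CHORDC1, chr11:90223070-90223139, minus strand: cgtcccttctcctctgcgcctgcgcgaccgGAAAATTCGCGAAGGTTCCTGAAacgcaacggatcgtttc
HSP90AA1, chr14:102087085-102087154, minus strand: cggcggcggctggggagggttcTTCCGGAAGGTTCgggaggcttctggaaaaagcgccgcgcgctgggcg
HSP90AB1, chr6:44247763-44247862, plus strand: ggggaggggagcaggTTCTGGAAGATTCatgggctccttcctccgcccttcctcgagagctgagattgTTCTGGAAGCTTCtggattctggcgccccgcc
HSP90B1, chr12:103930210-103930349, plus strand: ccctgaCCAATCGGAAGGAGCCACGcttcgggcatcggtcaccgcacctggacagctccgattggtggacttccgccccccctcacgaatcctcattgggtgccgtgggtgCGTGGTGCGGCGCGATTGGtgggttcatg
TRAP1, chr16:3717565-3717634, minus strand: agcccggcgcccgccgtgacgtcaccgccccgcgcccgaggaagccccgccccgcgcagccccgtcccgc

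CHORDC1 held 3 overlapping 3-unit elements that together span the bases 60 to 38 before its start. HSP90AA1 held 1, beginning 88 bases before the second of its 2 listed starts, and HSP90AB1 held 2, beginning 165 and 112 bases before the third of its 3. HSP90B1 held no heat shock element of either form and 2 ER stress elements on opposite strands, beginning 194 and 89 bases before its start. STIP1 held a 2-unit form 14 bases after the second of its 2 starts. The windows of TRAP1, CDC37, PTGES3 and AHSA1 held none of the motifs. A match describes letters in a window and is not evidence of binding, and elements outside the windows were not searched.

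**Figure D1:**
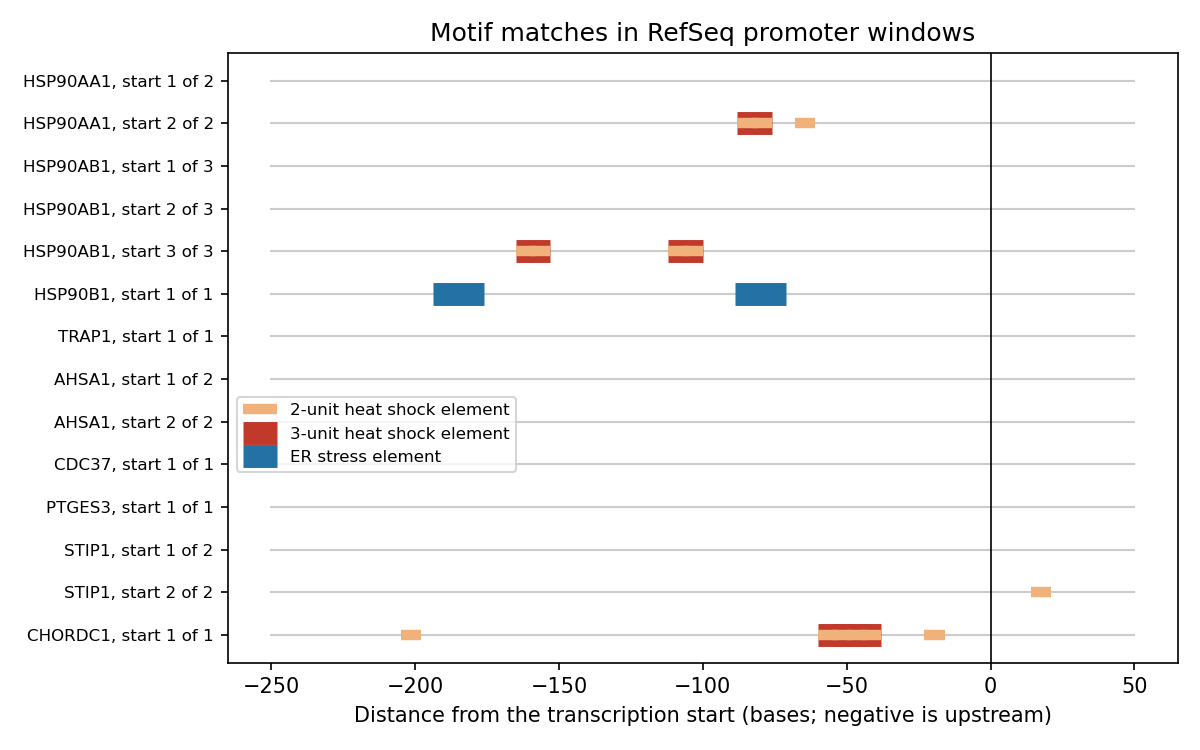
Each line is 1 RefSeq promoter window of a member, and the horizontal axis gives the distance in bases from the transcription start, with negative values upstream. Blocks mark 2-unit and 3-unit heat shock elements and ER stress elements; CHORDC1, HSP90AA1 and HSP90AB1 hold the 3-unit form and HSP90B1 the ER stress element.

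The members were mostly somewhat higher in the G-TPP array, and CHORDC1 was the 1 member past 2-fold. Values are the deposited intensities, and differences are log2 G-TPP minus log2 DMSO. A filter on brightness, an intensity of 239.2 or more in the brighter array, kept 11091 of 18417 named genes; all 9 members with a probe set passed. Of the 9 genes, 7 had a difference above 0 and 2 below, where 44% of all kept genes were above 0. At 2-fold, 1 of 9 was higher and 0 lower, against a background of 2.8% of kept genes higher and 0.55% lower. At 1.5-fold the same count of 1 and 0 stood against 7.37% and 3.23%, and at 3-fold 0 and 0 against 0.875% and 0.0631%. The median of the 9 differences was 0.31, and that of all kept genes was -0.04. Without CHORDC1 the members' median was 0.30. As a scale for array noise, 328 genes had exactly 2 bright probe sets, and the differences of such partners gave a standard deviation of 0.17 for 1 probe set. It leaves out the spread between cultures, which was not measured. The dimmest of the probe sets used per gene, that of CHORDC1, stood 7.69-fold above the 95th percentile of 341 olfactory receptor genes in the DMSO array. Those genes are mostly silent outside the nose.

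**Figure D2:**
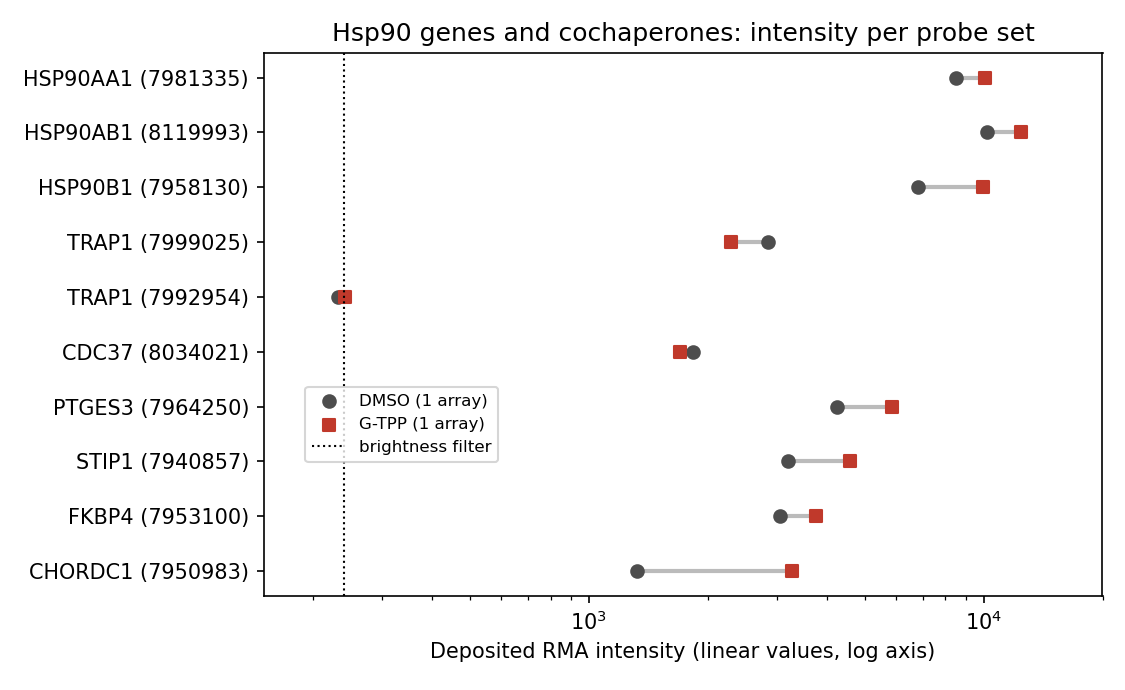
Deposited intensity of each member's probe set (named by gene and probe set number) on a log axis, with circles for the DMSO array and squares for the G-TPP array, 1 array each. The G-TPP square lies to the right of the DMSO circle for 8 of the 10 probe sets, and the brighter probe set of TRAP1 and that of CDC37 run the other way.

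The cytosolic paralogs differed little between the arrays. HSP90AA1 (probe set 7981335), the stress-inducible Hsp90 alpha, was at 8509 with DMSO and at 10082 with G-TPP, a log2 difference of 0.24 (1.18-fold higher). HSP90AB1 (probe set 8119993), the constitutive Hsp90 beta, had 10182 with DMSO and 12408 with G-TPP, a difference of 0.29 (1.22-fold higher). Their differences lay 0.04 apart, less than the scatter between probe sets of 1 gene. As high as HSP90AA1 or higher were 20.8% of all kept genes, and for HSP90AB1 the share was 18.4%. Both promoters hold the 3-unit heat shock elements printed above.

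HSP90B1 (probe set 7958130) encodes GRP94, the Hsp90 of the ER lumen, which folds integrins and Toll-like receptors among others. Its intensity was 6835 with DMSO and 9944 with G-TPP, a difference of 0.54 (1.45-fold higher), and 8.20% of kept genes were as high or higher. This was 0.28 above the mean of the cytosolic paralogs, which is 1.59 times the scatter per probe set. Of the 43 kept genes whose mean log2 intensity was at least that of HSP90B1, itself included, none had a higher difference. In the same signal range 0 genes reached 2-fold in either direction. That range starts at the brightness of HSP90B1 itself, so its rank depends on this limit. HSPA5, an Hsp70 of the ER, lay just under the limit and went from 5176 to 12824, a difference of 1.31. The cytosolic paralogs also ranked high among genes at least as bright as themselves. With the limit set at HSP90AA1, 3 other genes of 27 were as high as HSP90AA1 or higher. With it set at HSP90AB1, 1 other of 14 was as high as HSP90AB1 or higher.

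TRAP1 encodes the Hsp90 of the mitochondrial matrix, the intended target of G-TPP. Its brighter probe set (7999025), annotated to the gene's RefSeq transcripts, gave 2850 with DMSO and 2297 with G-TPP, a difference of -0.31 (1.24-fold lower). Its other probe set (7992954), annotated to a single mRNA record outside RefSeq, gave 231.3 and 240.5, a difference of 0.057. That probe set passed the filter through the G-TPP array alone and stood 1.34-fold above the olfactory receptor level with DMSO. The probe sets therefore disagree in direction, by 0.37. By the brighter one TRAP1 lay 0.85 below HSP90B1 and 0.58 below the mean of the cytosolic paralogs; by the mean over both TRAP1 probe sets these gaps were 0.67 and 0.39. TRAP1 had the lowest difference among the members by its brighter probe set, and 14.4% of kept genes were as low or lower.

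Among the cochaperones CHORDC1 stood at the top. CHORDC1 (probe set 7950983), also called morgana, is an Hsp90-binding protein with zinc-binding CHORD domains. It went from 1327 with DMSO to 3269 with G-TPP, a difference of 1.30 (2.46-fold higher), and 1.51% of kept genes were as high or higher. The next member lay 0.76 lower on the log2 scale. CHORDC1 also had the most matches to the 3-unit heat shock element among the members with a promoter window, 3 that overlap each other. HSP90AB1, with 2 separate matches, differed by 0.29. Whether the elements relate to the differences was not tested.

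STIP1 (probe set 7940857), which encodes HOP, the bridge that passes clients from Hsp70 to Hsp90, went from 3203 to 4579, a difference of 0.52 (1.43-fold higher). PTGES3 (probe set 7964250), which encodes p23, the cochaperone that holds the closed ATP-bound state, went from 4246 to 5855, a difference of 0.46 (1.38-fold higher). FKBP4 (probe set 7953100), the immunophilin FKBP52 of steroid receptor complexes, went from 3042 to 3761, a difference of 0.31 (1.24-fold higher). As high or higher were 8.98% of kept genes for STIP1, 10.6% for PTGES3 and 17.2% for FKBP4. All 3 were below 2-fold and above the noise scale of 0.17, which is a standard deviation and not a limit of noise. CDC37 (probe set 8034021), the loader of kinase clients, went from 1836 to 1702, a difference of -0.11 (1.08-fold lower), within that scale. The median of the 5 cochaperone members was 0.46.

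**Figure D3:**
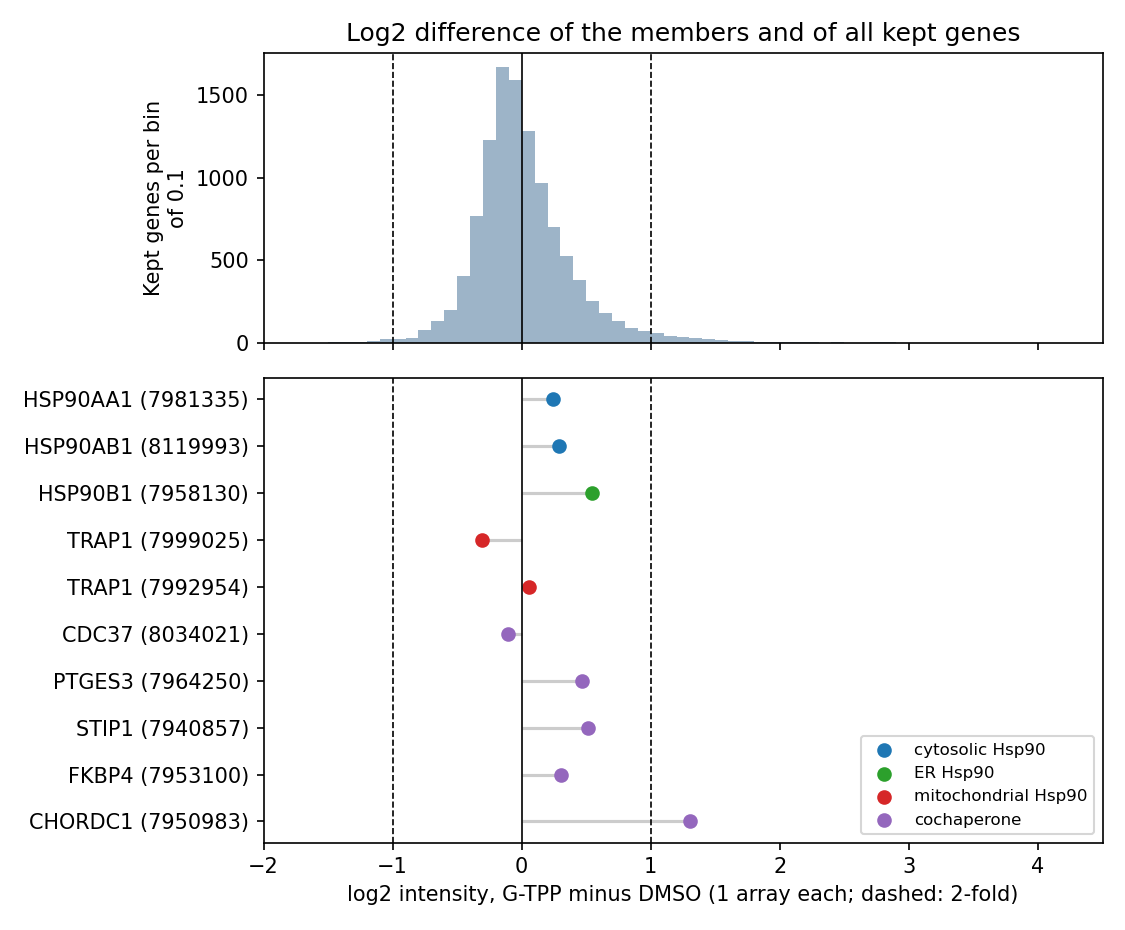
Upper panel: number of kept genes (11091 in all) per bin of 0.1 in log2 difference, G-TPP minus DMSO. Lower panel: the difference of each member's probe set, coloured by compartment or role, with dashed lines at 2-fold. CHORDC1 at 1.30 is the 1 member beyond a dashed line, and the TRAP1 probe sets lie on either side of 0.

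Pseudogenes of the Hsp90 genes also have probe sets, and their differences exceeded those of the parent genes wherever they passed the filter. These 11 probe sets were chosen after their values were seen, and each was set beside the parent that its symbol names. Of the 11, 6 passed the filter, and all 6 had a higher difference than the parent gene. HSP90AA2P went from 4849 to 7642 (difference 0.66), HSP90AA6P from 2195 to 3074 (0.49) and HSP90AA4P from 656.6 to 1111 (0.76), against 0.24 for HSP90AA1. HSP90AB3P went from 3851 to 5418 (0.49) and HSP90AB2P from 1190 to 1683 (0.50), against 0.29 for HSP90AB1. HSP90B3P went from 271.1 to 531.8 (0.97), against 0.54 for HSP90B1. The other 5, HSP90AB4P, HSP90AB5P, HSP90AB6P, HSP90AA5P and HSP90B2P, were at or under the olfactory receptor level in both arrays, so no fold is given for them. Near-identical copies can share probes, so the transcript behind these signals, and part of the signal of HSP90AA1 and HSP90AB1, is uncertain. The signals of the parents lay in the brightest range of the array. Among the 27 kept genes with a mean log2 intensity at least that of HSP90AA1, differences had a standard deviation of 0.22, and 0 reached 2-fold; over all kept genes the standard deviation was 0.43. The highest of the 27 was UBB, a ubiquitin gene, at 0.53. The part of brightness in the values of the cytosolic paralogs was not tested.

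**Figure D4:**
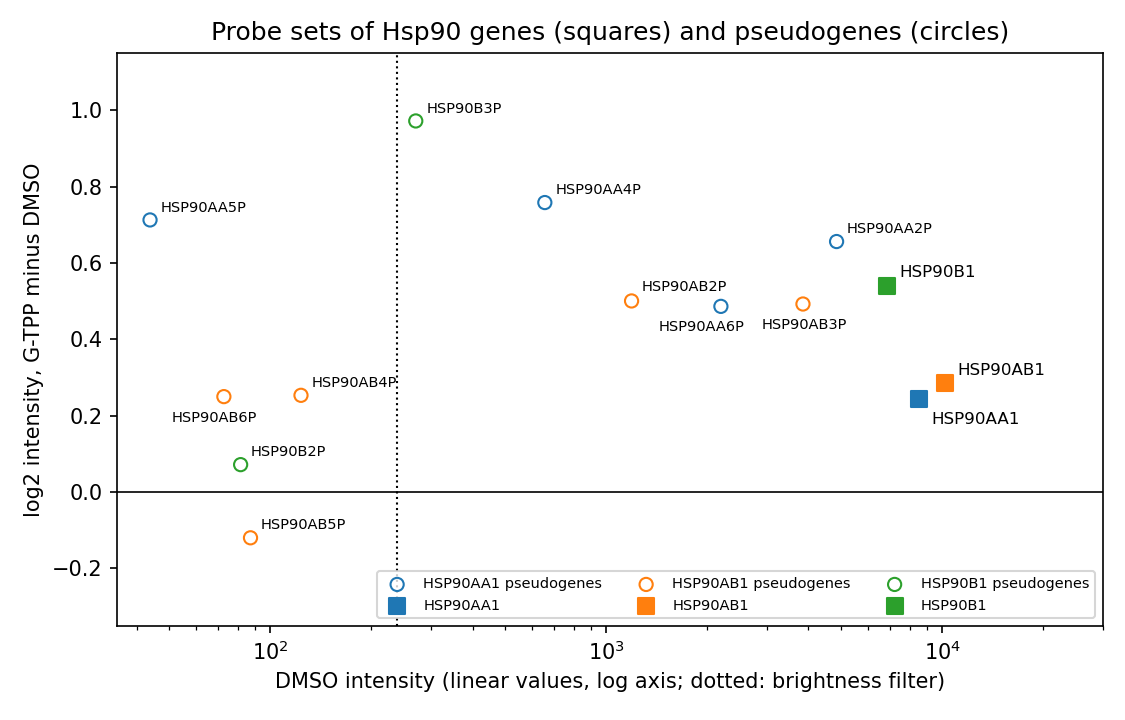
Log2 difference, G-TPP minus DMSO, against the DMSO intensity on a log axis for 3 Hsp90 genes (filled squares) and 11 Hsp90 pseudogenes (open circles), coloured by parent gene; the dotted line is the brightness filter. The 6 pseudogenes right of that line lie between 0.49 and 0.97, each above the square of its own colour; the 5 left of it are at background level in both arrays.

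Other Hsp90 cochaperones and partners of the cytosol formed a mixed picture. Of 32 genes asked for, 27 were on the array under a single name and 25 passed the filter. Of the 25, 1 (4%) was at least 2-fold higher and 0 lower, near the 2.8% and 0.55% of all kept genes. Above 0 were 16, against 44% of all kept genes, and the median difference was 0.11. PPID, the immunophilin cyclophilin 40, went from 553.2 to 1369, a difference of 1.31 (2.48-fold higher), about the same as CHORDC1. CACYBP, a partner of the ubiquitin ligase SIAH1, had a difference of 0.84 by its brighter probe set (3580 to 6414) and 0.35 by the other (640.7 to 818.7). FNIP1, the folliculin partner that slows the Hsp90 ATPase, went from 425.6 to 755.6 (0.83). SUGT1, which links Hsp90 to kinetochore assembly and immune receptors, went from 753.9 to 1253 (0.73). These 3 did not reach 2-fold. The list includes the pseudogene HSP90AA2P, and without it the median of the other 24 was 0.10. AHSA2P, whose symbol also marks a pseudogene, stayed among the 24 and had a difference of 0.29.

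HSF1 itself was not higher. Its intensity was 945.9 with DMSO and 779.9 with G-TPP, a difference of -0.28, and HSF4 had -0.22. HSBP1, a small HSF1-binding protein, had 0.22 and the deacetylase gene HDAC6, whose product acts on Hsp90, had -0.19. Of 5 genes asked for, these 4 were on the array under a single name, and HSF2 has no value. None of the 4 reached 2-fold, where 2.8% of all kept genes were at least 2-fold higher and 0.55% lower.

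Target genes of HSF1 other than the members reached much larger differences than the Hsp90 genes. All 19 kept genes of that list were above 0, 10 were at least 2-fold higher, and the median difference was 1.06. Of all kept genes, 44% were above 0 and 2.8% at least 2-fold higher. HSPA6, a strictly stress-inducible Hsp70, had a difference of 4.46, and the Hsp40 genes DNAJB4 and DNAJB1 had 2.50 and 2.29. BAG3, a nucleotide exchange factor of Hsp70, and SERPINH1, the collagen chaperone of the ER, had 1.91 and 1.54. CRYAB, a small heat shock protein, was at the olfactory receptor level with DMSO (92.5) and reached 533.3 with G-TPP, at least 3.09-fold higher against that level. CRYAB is among the 10 and passed the filter through the G-TPP array alone. Within the list 3 bright chaperone genes, named after their values were seen, were nearer the cytosolic Hsp90 genes in difference. HSPA8, the constitutive Hsp70, had 0.077 (13633 to 14378), the chaperonin gene HSPD1 had 0.12 and the small heat shock protein gene HSPB1 had 0.34.

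Genes that work beside HSP90B1 in the ER ranged widely. Of 19 kept genes, 18 were above 0, 9 were at least 2-fold higher and 0 lower, and the median difference was 0.93. The shares over all kept genes were 44% above 0, 2.8% at least 2-fold higher and 0.55% lower. DNAJB9, HERPUD1 and DNAJC3 led with 3.70, 2.82 and 2.06, followed by SEL1L (1.74), SDF2L1 (1.38) and HSPA5 (1.31), the Hsp70 of the ER. DNAJB9 passed the brightness filter through the G-TPP array alone, with 210.4 in DMSO and 2733 in G-TPP. CNPY3, the cochaperone of GRP94 for Toll-like receptors, had 0.017 (1779 to 1800), and its relative CNPY2 had -0.18; both were looked at after the values were seen. HSP90B1 with 0.54 lay under the median of these genes.

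Mitochondrial chaperones and proteases, the setting of TRAP1, lay on both sides of 0. Of 18 kept genes, 9 were above 0 and 9 below, none reached 2-fold, and the median difference was 0.011. Among all kept genes 44% were above 0, 2.8% at least 2-fold higher and 0.55% at least 2-fold lower. PMPCA, a subunit of the processing peptidase, had -0.87 and the protease gene HTRA2 -0.65, while GRPEL2, an exchange factor of mortalin, had 0.67 and the protease gene LONP1 0.56. TRAP1, at -0.31 by its brighter probe set, lay inside this range.

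**Figure D5:**
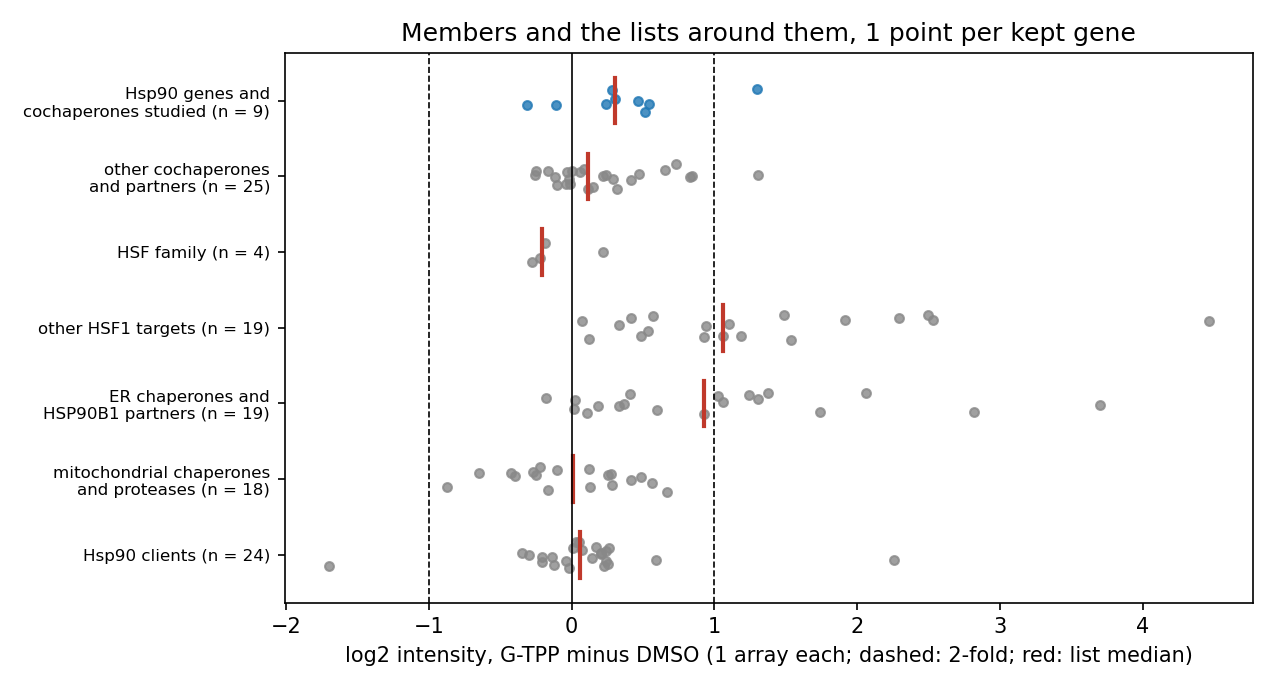
Each point is the log2 difference, G-TPP minus DMSO, of 1 kept gene, with a red bar at the list's median and dashed lines at 2-fold; the vertical scatter within a list carries no value. The medians are 0.31 for the Hsp90 genes and cochaperones, 0.11 for the other cochaperones and partners, 1.06 for the other HSF1 targets, 0.93 for the ER list and 0.011 for the mitochondrial list.

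Client proteins of Hsp90 are known to be degraded when the chaperone is blocked, which an array of transcripts does not measure. Their genes had a median difference of 0.062 over 24 kept genes, with 1 at least 2-fold higher and 1 at least 2-fold lower. For all kept genes the shares were 2.8% and 0.55%, and 1 of 24 higher (4.17%) is near the first. EIF2AK3, the ER stress kinase PERK, went from 352.8 to 1689 (2.26) and PDGFRA, a receptor tyrosine kinase of glioma, from 1592 to 490.1 (-1.70). The kinase genes ERN1 and AURKB had 0.59 and -0.35.

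Both arrays carried the glial and glioma markers of the label in part. Of 10 markers, 8 were above the olfactory receptor level in both arrays, and S100B and AQP4 were not; GFAP was dim, at 245.2 with DMSO and 231.5 with G-TPP. Their summed intensity was 23010 with DMSO and 18864 with G-TPP, with SOX2 (4434 to 1629) the 1 marker past 2-fold and SOX9 (921.9 to 466.7) just short of it. The sums of the markers of other cell types were also lower with G-TPP, at 1031 and 860.3 for immune cells, 901.7 and 835.3 for endothelium, 831.6 and 720.5 for neurons and 435.9 and 389.5 for epithelium. The part of these shifts in the members' values was not tested. Of the 15 markers of other cell types, 8 were above the olfactory receptor level in both arrays. They were CD68 (583.7 with DMSO) and TYROBP (305.7) of immune cells, CDH5 (319.5) and CLDN5 (371.8) of endothelium, RBFOX3 (248.1), SNAP25 (212.5) and GAD1 (243.9) of neurons and KRT19 (266.7) of epithelium. PTPRC, CD3E, PECAM1, VWF, SYT1, EPCAM and CDH1 were not above it. The control genes ACTB and GAPDH had differences of -0.11 and -0.061. Both arrays are of 1 established line, so these sums are not counts of cell types. Fewer cells expressing a marker and less of its RNA per cell cannot be told apart.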

How the data were processed

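Each probe set has 1 deposited intensity in each array. RMA was run by the authors in Affymetrix Expression Console 1.1.2, per the submitters' processing notes. It corrects background, equalises the arrays' distributions and summarises probes, so a change in total RNA per cell is not visible. The deposited intensity values run from 6.61 to 18995 and so are linear; how they reached that scale, and which arrays entered RMA, is not given in the sources used here.

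Groups follow the agent in the labels. Probe sets with 1 gene symbol (19460 of 33297) were named, with symbols updated through the RefSeq gene table of GRCh38.p14. A gene's value came from its brightest probe set by the mean of both arrays, and every probe set of a member is shown. The filter was the median over probe sets of the brighter array's value. The log2 of the deposited intensity was taken without a pseudocount, and a gene was called at an absolute difference of 1. For a gene under the olfactory receptors' 95th percentile (172.6 with DMSO, 173.6 with G-TPP) in 1 array the fold is a lower bound, and none is given for a gene under it in both.

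The members and lists were chosen with earlier results of these data known. Of each list, genes past 2-fold were named, at most 6, filled to 4 by size of difference. Genes of like pattern were not sought, since with 2 arrays a pattern is 1 difference. The 2-fold call was tested on simulated arrays with planted differences larger than that of any member. Smaller differences, such as those of most members, were not tried in it. Alternatives were other thresholds, filters, centrings, quantile normalization, probe set choices and a pseudocount. Software was matplotlib 3.10.9, statsmodels 0.14.6, pandas 2.3.3 and numpy 2.4.6 under Python 3.11.15.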

Additional observations from a re-analysis of the deposited data

How the results depend on the processing

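With 1 array per condition neither the leaving out of a replicate nor a test was possible, and array number limits the precision. No paired analysis was possible because the labels give no replicate numbers and each condition has 1 array. A value was taken as moved when it shifted by more than 0.17, the scatter per probe set, and a count when it changed by more than 1.5 times. Under 11 alternatives, 128 of 135 values and 146 of 154 counts stayed within these limits. The members' differences kept their sign in 53 of 54 cases, TRAP1 being the exception. Among the members the probe set choices could change TRAP1 alone, since each of the others had 1 probe set. Centring on the median could not change the gaps between genes. Such cases were fixed in advance and are no sign of stability. With the dimmest probe set per gene TRAP1 had 0.057, and with the mean over probe sets -0.13. The gap between HSP90B1 and TRAP1 was then 0.48 and 0.67, and that between the cytosolic paralogs and TRAP1 0.21 and 0.39. The median of the HSF family was -0.028 at the 75th percentile filter. Under a 3-fold threshold 0.875% of all kept genes were higher. There 0 of 9 members, 0 of 25 genes of the list of other cochaperones, 5 of 19 HSF1 targets and 4 of 19 ER genes were higher. Under 1.5-fold, 7.37% of all kept genes were higher and 3.23% lower. In the list of other cochaperones 5 of 25 genes were then higher, the pseudogene HSP90AA2P among them. Of the clients 2 of 24 were higher. Of the 18 mitochondrial genes 1 was higher and 2 were lower. CHORDC1 ranged from 1.25 to 1.34 over the scalings and the pseudocount.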

Other observations

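Other kept genes with the same promoter motifs were looked at after the members' motifs were known. Leaving out the members, the windows of 34 kept genes held a 3-unit heat shock element, and 4 of them (11.8%) reached 2-fold in favour of G-TPP, with a median log2 difference of 0.21. With the members the count was 5 of 37 (13.5%). Of the 8907 kept genes whose windows lacked the element, 2.89% reached 2-fold. The 4 genes were HSPA6 (a log2 difference of 4.46), SERPINH1 (1.54), the Hsp40 gene DNAJB6 (2.15-fold higher) and ABHD3 (1.09), an enzyme of phospholipid breakdown. HSPD1 and HSPA8, which also hold the element, had differences of 0.12 and 0.077. Besides HSP90B1, 15 kept genes held an ER stress element, with a median difference of 0.41, and 5 of them (33.3%) were at least 2-fold higher. These were the transcription factor gene XBP1 (2.24), FICD (1.88), which modifies the Hsp70 of the ER, HSPA5 (1.31), TRIM5 (1.17) and the oxidase gene ERO1B. ERO1B went from 118.8, below the olfactory receptor level, to 555.9, and passed the filter through the G-TPP array alone. The ER stress element was absent from the windows of 8928 kept genes. In that group 2.88% reached 2-fold in favour of G-TPP, with a median log2 difference of -0.033. The 2-unit heat shock element was held by 1194 kept genes, members included, of which 3.94% were at least 2-fold higher, against 2.77% of those without it. No test was made of these shares.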
